A study of Mus musculus with 6 samples.

Results

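The genes described here encode the enzymes of the tricarboxylic acid (TCA) cycle, of pyruvate entry into mitochondria and of the pentose phosphate pathway. They were a list of 36 symbols, found as rows of a table of 17457 genes, and all 36 were present. RNA was sequenced from mesenchymal stem cells (MSCs) of the long bones of wild-type female C57BL/6J mice aged 10 weeks, sorted by surface markers as CD45-, Ter119-, CD31-, Sca-1+ and PDGFRα+. Primary MSCs (2 libraries) were sorted straight from collagenase-digested bone, each from a pool of several mice. Cultured MSCs (4 libraries) came from bone digests of 2 mice each that were grown for 10 days in MesenCult medium and then sorted with the same markers. Since the whole digest was cultured and the sort followed, a difference between the groups is one between sorted populations. In bulk RNA, a change in the cells present and a change of RNA per cell cannot be told apart.

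The TCA cycle oxidises acetyl units in the mitochondrial matrix and yields reduced cofactors for respiration, and its intermediates leave the matrix as building blocks for lipids and amino acids. Pyruvate enters mitochondria through a carrier and is either oxidised to acetyl-CoA by the pyruvate dehydrogenase complex (PDH) or carboxylated to oxaloacetate. The pentose phosphate pathway (PPP) diverts glucose 6-phosphate, makes NADPH in its oxidative arm and supplies ribose phosphate for nucleotides. In stromal cells these routes are known to shift with growth, oxygen supply and differentiation.

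Values are FPKM, a level scaled to gene length and to the number of mapped fragments, so that genes can be set beside each other. The groups were compared with limma on log2(FPKM + 0.1) for the 11405 genes that reached 1 FPKM in 2 or more libraries, and fold changes of genes with low levels come out too small on that scale. Rose and fell are used of cultured relative to primary MSCs, for an adjusted p (Benjamini-Hochberg, over all genes tested) under 0.05. Means are given ± SD, with n = 2 for primary and n = 4 for cultured MSCs. The summed FPKM of the libraries ranged from 559601 to 642497, and the reads behind a single value are unknown because the table holds no counts. Markers of other cells were not alike in the groups. The summed FPKM of 14 macrophage markers was 34.3 and 34.4 in primary MSCs and 108 to 352 in cultured MSCs, lowest in cultured replicate 3. Of the 13 tested 12 rose, where 48.1% of all genes tested did. The summed FPKM of 6 erythroid genes was 150 and 239 in primary MSCs and 0.20 to 0.61 in cultured MSCs. Endothelial markers summed to 3.14 and 4.37 FPKM in primary and 0.11 to 0.43 in cultured MSCs. In primary MSCs most of this was Tek, the only one tested, which fell from 2.71 and 3.70 FPKM to at most 0.22. Emcn was 0 in both primary libraries and reached 0.30 FPKM in cultured MSCs, and Cdh5 did not exceed 0.05 in any library. Skeletal muscle markers summed to 3.62 and 3.87 FPKM in primary and 3.56 to 6.45 in cultured MSCs. Of the muscle genes tested, Acta1 rose from 0.03 and 0.10 FPKM to between 2.12 and 5.46 and Tnnt3 fell from 3.52 and 2.64 to between 0.97 and 2.21, while Myh1 did not exceed 0.02 in any library. Ly6a, which encodes Sca-1, and Pdgfra were present in all 6 libraries, and Pdgfra fell by 0.82 on the log2 scale. Neutrophil markers summed to 5.30 and 7.60 FPKM in primary and 2.92 to 5.56 in cultured MSCs. The part of other cells in the results below was not tested.

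Most of these enzyme genes were higher in cultured MSCs. Of the 35 members tested, 29 rose and 3 fell, and 3 were not called, where 48.1% of all genes tested rose and 17.6% fell. Their median log2 fold change was 0.77, beside 0.45 for all genes tested. The groups did not overlap in 33 members (72.8% of all genes tested). In 30 of them every cultured value lay above both primary values and in 3 every one lay below, where 52.3% and 20.4% of all genes did so. A log2 fold change of at least 1 was seen in 15 members (26.1% of all genes). Median ratio scaling of the libraries took the median of all genes to 0.02, and on that scale 18 members rose and 5 fell, beside 29.3% and 28.6% of all genes. The members that fell were Ogdh, Mpc2 and Pdk2, and without any of cultured replicates 2, 3 and 4 or primary replicate 1 only Pdk2 fell, and without primary replicate 2 those that fell were Pdk2 and Pdk4. Rpia, the ribose 5-phosphate isomerase of the PPP, was under the filter, with 0.12 to 0.40 FPKM in cultured MSCs and 0.06 and 0.23 in primary MSCs.

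**Figure D1:**
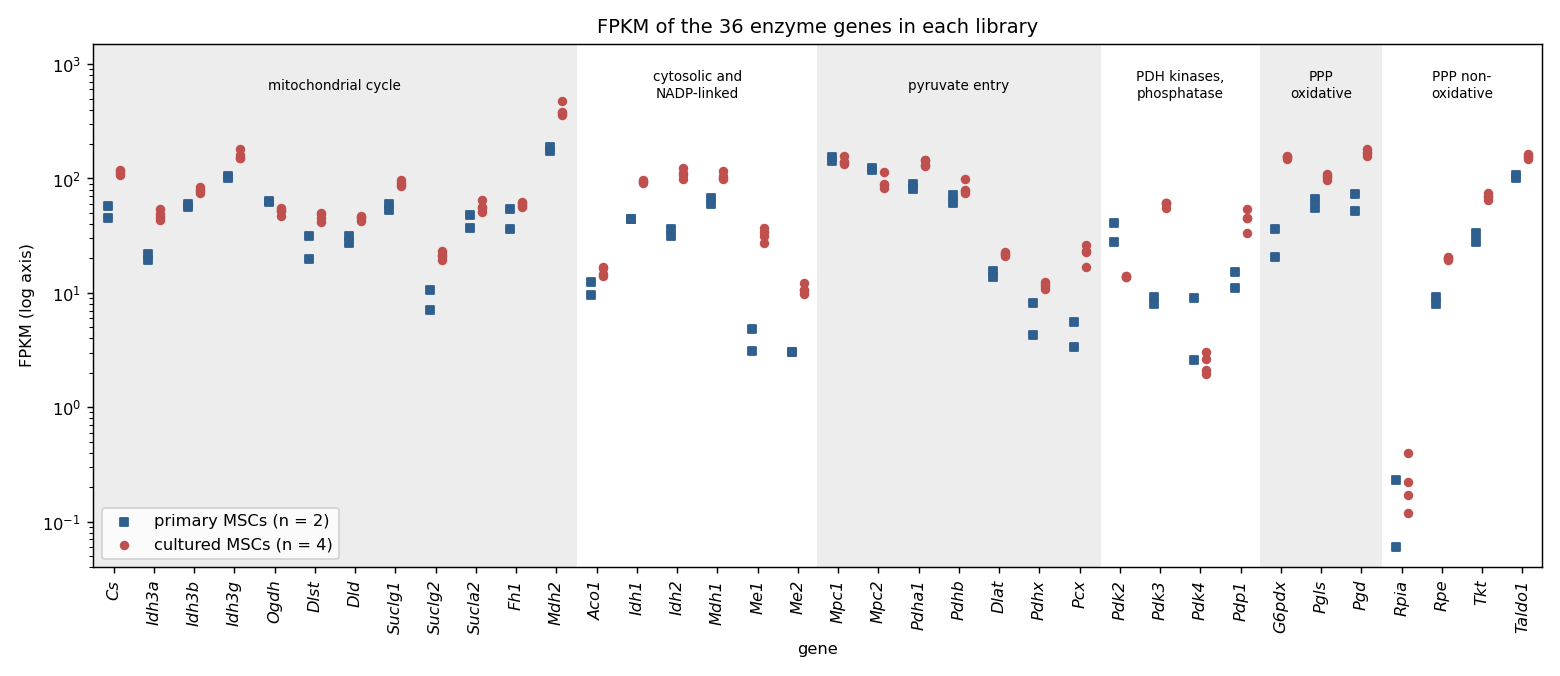
FPKM of each of the 36 genes (log axis) in the 2 primary libraries (squares) and the 4 cultured libraries (circles), by branch of metabolism. In 30 of the 35 genes tested all circles lie above both squares, as for Me1, Pdk3 and G6pdx, and Rpia lies under 1 FPKM throughout.

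The largest rises were those of Me1, Pdk3 and G6pdx and the largest fall was that of Pdk2. Me1 encodes the cytosolic malic enzyme, which turns malate into pyruvate and makes NADPH. It stood at 3.12 and 4.80 FPKM in the primary and at 27.2, 31.5, 34.0 and 37.0 in the cultured libraries (log2 fold change 3.02, standard error 0.20, limma adjusted p = 7.57e-06). Pdk3, a kinase that switches PDH off, stood at 9.23 and 7.96 FPKM in the primary and at 60.6, 60.6, 55.3 and 61.2 in the cultured libraries (log2 fold change 2.78, standard error 0.11, limma adjusted p = 7.32e-07). G6pdx, the X-linked glucose 6-phosphate dehydrogenase that opens the PPP, stood at 20.6 and 36.3 FPKM in the primary and at 153, 153, 158 and 148 in the cultured libraries (log2 fold change 2.48, standard error 0.20, limma adjusted p = 1.99e-05). In each of these 3 genes every cultured library was far above both primary libraries. The cultured values of Me1 spread the most, with a coefficient of variation of 12.8%. Pdk2, another of the PDH kinases, went the other way, with 27.8 and 40.7 FPKM in primary MSCs and 13.8, 13.7, 14.1 and 14.2 in cultured MSCs (log2 fold change -1.26, standard error 0.16, limma adjusted p = 0.000209). Its groups did not overlap either, and the primary libraries differed more from each other than the cultured ones did.

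The start regions of these 4 genes are shown because they carry the largest changes in either direction. Each is the 250 bases before the start site in the RefSeq annotation of GRCm38.p6, read 5′ to 3′ on the gene's strand, with matches to any of 5 short motifs in capitals.
Me1, chr9:86695915-86696164, minus strand: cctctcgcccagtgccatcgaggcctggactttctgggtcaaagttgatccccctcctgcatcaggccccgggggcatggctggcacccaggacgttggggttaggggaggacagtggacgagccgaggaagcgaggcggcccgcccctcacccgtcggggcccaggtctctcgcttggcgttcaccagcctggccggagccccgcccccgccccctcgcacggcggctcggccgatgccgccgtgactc
Pdk3, chrX:93832151-93832400, minus strand: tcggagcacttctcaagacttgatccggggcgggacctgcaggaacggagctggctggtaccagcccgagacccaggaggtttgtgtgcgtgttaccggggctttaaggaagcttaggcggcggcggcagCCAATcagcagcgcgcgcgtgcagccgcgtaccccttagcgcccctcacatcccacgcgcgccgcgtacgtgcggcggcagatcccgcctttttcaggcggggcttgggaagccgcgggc
G6pdx, chrX:74428881-74429130, minus strand: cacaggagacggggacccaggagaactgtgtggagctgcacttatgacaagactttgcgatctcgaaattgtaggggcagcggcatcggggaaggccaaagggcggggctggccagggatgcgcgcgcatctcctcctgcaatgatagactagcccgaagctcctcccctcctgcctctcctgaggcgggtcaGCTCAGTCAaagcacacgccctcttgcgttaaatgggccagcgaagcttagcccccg
Pdk2, chr11:95041372-95041621, minus strand: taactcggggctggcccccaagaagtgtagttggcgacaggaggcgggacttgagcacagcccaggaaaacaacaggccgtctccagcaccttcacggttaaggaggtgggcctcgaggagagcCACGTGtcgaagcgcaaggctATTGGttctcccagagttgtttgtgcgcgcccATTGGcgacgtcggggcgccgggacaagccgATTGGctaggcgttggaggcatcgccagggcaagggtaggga
The motifs were the antioxidant response element TGACNNNGC, the E-box CACGTG, the palindromic NRF1 site, the estrogen-related receptor site CAAGGTCA and the CCAAT box, searched on both strands. The G6pdx window held an antioxidant response element on the reverse strand, a motif present in 12.1% of the windows of the 33 members with a RefSeq start and in 11.6% of all 13749 windows. The Pdk2 window held an E-box (6.06% of members, 7.64% of all) and 3 CCAAT boxes on the reverse strand, written ATTGG. The Pdk3 window held 1 CCAAT box, and the Me1 window held no match. CCAAT boxes stood in 18 of the 33 member windows (54.5%), beside 36.3% of all windows and 37.2% of those of the genes tested. No member window held the NRF1 site (1.32% of all) or that of the estrogen-related receptor (1.05% of all). The motifs do not overlap in the printed windows. A match is a stretch of letters and not a measured binding site.

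**Figure D2:**
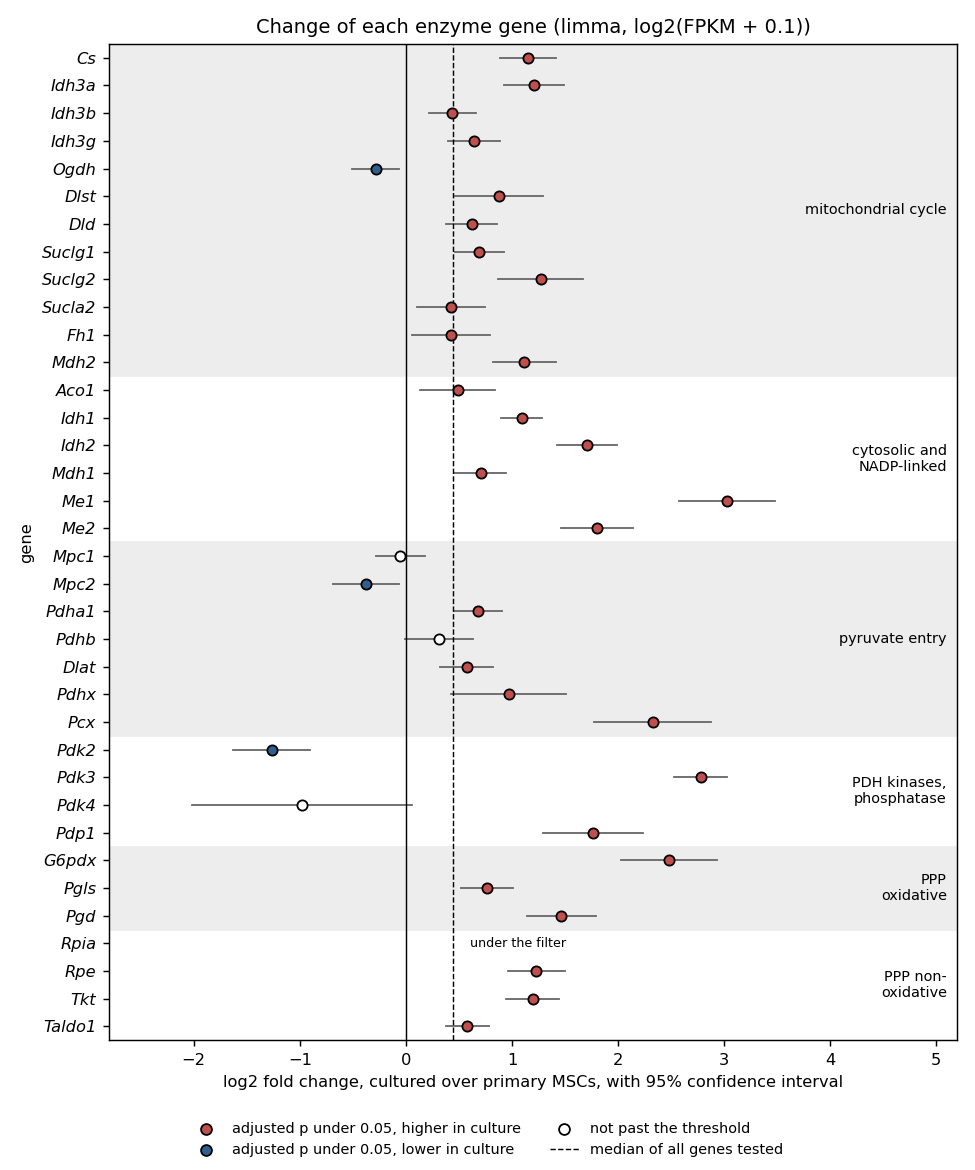
Log2 fold change of cultured over primary MSCs for each gene (points) with its 95% confidence interval (lines), filled where the adjusted p was under 0.05, with a dashed line at the median of all genes tested, 0.45. Me1, Pdk3, G6pdx and Pcx lie farthest to the right, and Pdk2 lies at -1.26.

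Within the mitochondrial cycle, 11 of 12 members rose and Ogdh fell, where 48.1% of all genes rose and 17.6% fell. The median log2 fold change of this branch was 0.67, and with median ratio scaling 5 of the 12 rose and 1 fell, beside 29.3% and 28.6% of all genes. Citrate synthase (Cs), which condenses acetyl-CoA with oxaloacetate at the entry to the cycle, stood at 45.0 and 57.2 FPKM in the primary and at 111, 116, 108 and 118 in the cultured libraries. Its groups were well apart (log2 fold change 1.15, limma adjusted p = 6.27e-05). Mdh2, the mitochondrial malate dehydrogenase that closes the cycle, was the most abundant member in both groups, at 181 ± 10.6 FPKM in primary and 395 ± 52.8 in cultured MSCs. Suclg1, the subunit shared by both forms of succinyl-CoA synthetase, rose by 0.69 on the log2 scale.

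The subunits of NAD-linked isocitrate dehydrogenase did not rise alike. Idh3a, the catalytic subunit, had 20.7 ± 1.61 FPKM in primary and 48.0 ± 4.81 in cultured MSCs (log2 fold change 1.21). Idh3b, its regulatory partner, had 58.2 ± 2.13 and 79.0 ± 4.48 FPKM (log2 fold change 0.44), and Idh3g, the other regulatory subunit, had 103 ± 1.82 and 161 ± 15.3 (log2 fold change 0.64). The ratio of Idh3a to Idh3b within a library was 0.327 and 0.385 in primary MSCs and 0.557 to 0.640 in cultured MSCs. Multiplying all values of a library by a constant cannot change it. All 4 cultured ratios thus lay above both primary ones (difference of log2 ratios 0.77, with 0.1 added to each FPKM value before the logarithm). Such ratios were computed for 16 pairs and compared with a two-sided exact permutation test, whose smallest possible p for 4 libraries against 2 is 0.0667 (0.0762 after Benjamini-Hochberg adjustment over the 16), so none could pass 0.05. The p was at that smallest value for 14 pairs, Idh3a over Idh3b among them. The share of pairs of other genes that reach it was not computed, so the count is not shown to be particular to these enzymes. Of all single genes tested, 72.8% had groups that did not overlap.

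The α-ketoglutarate dehydrogenase complex showed a similar unevenness. Ogdh, its E1 subunit, stood at 62.8 and 63.0 FPKM in the primary and at 54.8, 52.6, 47.4 and 51.9 in the cultured libraries. The groups did not overlap, but the fall was small (log2 fold change -0.29, limma adjusted p = 0.0303). It did not pass the test when any library except cultured replicate 1 was left out, with adjusted p between 0.0593 and 0.0852. Dlst, the E2 subunit, rose from 25.8 ± 8.20 FPKM in primary to 46.4 ± 3.86 in cultured MSCs (log2 fold change 0.88, and 0.55 without primary replicate 1). Dld, the E3 subunit that PDH also uses, rose by 0.62. The ratio of Dlst to Ogdh was 0.318 and 0.501 in primary MSCs and 0.761 to 0.968 in cultured MSCs.

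The 2 nucleotide-specific subunits of succinyl-CoA synthetase moved unequally. Suclg2, of the GDP-forming enzyme, had 8.86 ± 2.46 FPKM in primary and 21.2 ± 1.72 in cultured MSCs (log2 fold change 1.27, limma adjusted p = 0.000354). Sucla2, of the ADP-forming enzyme, had 42.5 ± 7.58 and 56.9 ± 5.98 FPKM (log2 fold change 0.43, limma adjusted p = 0.0276). Sucla2 remained the more abundant in every library, but its excess over Suclg2 was 6.73 and 3.51 times in primary MSCs and 2.46 to 2.87 times in cultured MSCs. Fumarase (Fh1) stood at 35.9 and 54.2 FPKM in the primary and at 61.3, 58.2, 62.2 and 56.0 in the cultured libraries (log2 fold change 0.43, limma adjusted p = 0.0427). The rise of Sucla2 did not pass the test without cultured replicate 1, 2 or 4 or primary replicate 2 (limma adjusted p 0.0509 to 0.172), with a log2 fold change of 0.24 in the last case, and that of Fh1 without any of the cultured libraries or without primary replicate 1 (adjusted p 0.0635 to 0.307), where its log2 fold change was 0.13. With median ratio scaling both lay at about 0 (-0.01 each).

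All 6 members grouped as cytosolic and NADP-linked relatives of the cycle enzymes rose (48.1% of all genes). Their median log2 fold change was 1.40, and 5 of them rose with median ratio scaling (29.3%). The malic enzymes Me1 and Me2 were among the larger rises. Me2, a mitochondrial malic enzyme placed in the same group, stood at 3.02 FPKM in each primary library and at 12.2, 9.73, 10.6 and 10.7 in cultured MSCs (log2 fold change 1.80, limma adjusted p = 2.36e-05). Me1 rose more than Me2, so that their ratio was 1.03 and 1.59 in primary MSCs and 2.24 to 3.47 in cultured MSCs. Me3, another malic enzyme outside the 36, also rose, from 0.96 and 0.93 FPKM to between 3.98 and 5.12 (log2 fold change 2.12).

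The NADP-linked isocitrate dehydrogenases rose together and exchanged ranks. Idh1, the cytosolic enzyme, stood at 44.5 and 43.8 FPKM in the primary and at 94.5, 96.7, 93.8 and 91.8 in the cultured libraries (log2 fold change 1.09, limma adjusted p = 1.73e-05). Idh2, its mitochondrial counterpart, stood at 36.5 and 31.1 FPKM in the primary and at 112, 125, 98.4 and 108 in the cultured libraries (log2 fold change 1.71, limma adjusted p = 1.18e-05). Idh1 was the higher of the pair in both primary libraries and Idh2 in all 4 cultured ones, with Idh2 to Idh1 ratios of 0.710 and 0.820 against 1.05 to 1.29. Mdh1, the cytosolic malate dehydrogenase of the malate-aspartate shuttle, rose by 0.71, less than Mdh2 at 1.12, and the ratio of Mdh1 to Mdh2 was 0.320 and 0.389 in primary and 0.244 to 0.275 in cultured MSCs. Aco1, the cytosolic aconitase that doubles as an iron-responsive RNA-binding protein, had 11.0 ± 2.04 and 15.4 ± 1.34 FPKM (log2 fold change 0.49, limma adjusted p = 0.0215), a call that did not hold without cultured replicate 2 (adjusted p = 0.0610) or primary replicate 2 (adjusted p = 0.106, log2 fold change 0.30).

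At pyruvate entry the carrier and the enzymes behind it parted. The mitochondrial pyruvate carrier is made of Mpc1 and Mpc2. Mpc1 stood at 154 and 141 FPKM in the primary and at 157, 140.3, 139.5 and 134 in the cultured libraries, with overlapping groups (log2 fold change -0.05, 95% confidence interval -0.28 to 0.18, limma adjusted p = 0.664). Mpc2 stood at 123 and 117 FPKM in the primary and at 114, 88.7, 88.3 and 82.3 in the cultured libraries, all below the primary libraries (log2 fold change -0.38, limma adjusted p = 0.0379). The Mpc2 call was lost without any library other than cultured replicate 1 (adjusted p 0.0715 to 0.119). With median ratio scaling Mpc1 (-0.49) and Mpc2 (-0.81) both fell.

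Of the PDH complex subunits, Pdha1, Dlat and Pdhx rose and Pdhb was not called. Pdha1, the X-linked E1α subunit that the kinases phosphorylate, stood at 81.6 and 89.5 FPKM in the primary and at 146, 144, 132 and 128 in the cultured libraries (log2 fold change 0.68, limma adjusted p = 0.000464). Pdhb, the E1β subunit, had 66.1 ± 7.63 and 82.5 ± 11.1 FPKM and did not pass (log2 fold change 0.31, limma adjusted p = 0.0756, and adjusted p = 0.0496 without primary replicate 1). Dlat, the acetyltransferase core, rose by 0.57, and Pdhx, which tethers the E3 subunit to it, by 0.97. Pdhx was uneven in primary MSCs, at 8.10 and 4.29 FPKM, and its log2 fold change was 0.52 without primary replicate 2 and 1.42 without primary replicate 1. With median ratio scaling none of these 4 subunits passed the test.

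Pyruvate carboxylase changed far more than PDH. Pcx, which makes oxaloacetate from pyruvate and so refills the cycle, stood at 3.34 and 5.56 FPKM in the primary and at 16.9, 22.8, 23.5 and 26.0 in the cultured libraries. Every cultured value was far above both primary ones (log2 fold change 2.33, standard error 0.24, limma adjusted p = 7.59e-05). The ratio of Pcx to Pdha1 was 0.0409 and 0.0621 in primary MSCs and 0.115 to 0.204 in cultured MSCs, a difference of 1.64 on the log2 scale.

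The regulators of PDH moved in opposite directions. The kinases Pdk1 to Pdk4 inactivate the complex and the phosphatase Pdp1 reactivates it. Of the 4 regulators among the members, Pdk3 and Pdp1 rose, Pdk2 fell and Pdk4 did not pass the test. The ratio of Pdk3 to Pdk2 was 0.332 and 0.196 in primary MSCs and 3.92 to 4.42 in cultured MSCs, the widest shift of the 16 pairs (4.04 on the log2 scale). Pdk2 was thus the higher of the pair in both primary libraries and Pdk3 in all cultured ones. Adding Pdk1, which is not a member, Pdk2 held 53.0% and 72.4% of the summed FPKM of the 4 kinase genes in primary MSCs and 11.6% to 13.3% in cultured MSCs. Pdk3 held 14.2% and 17.6% in primary and 50.3% to 52.6% in cultured MSCs. The summed FPKM of the 4 kinases was 52.4 and 56.2 in primary MSCs and 106 to 122 in cultured MSCs.

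**Figure D3:**
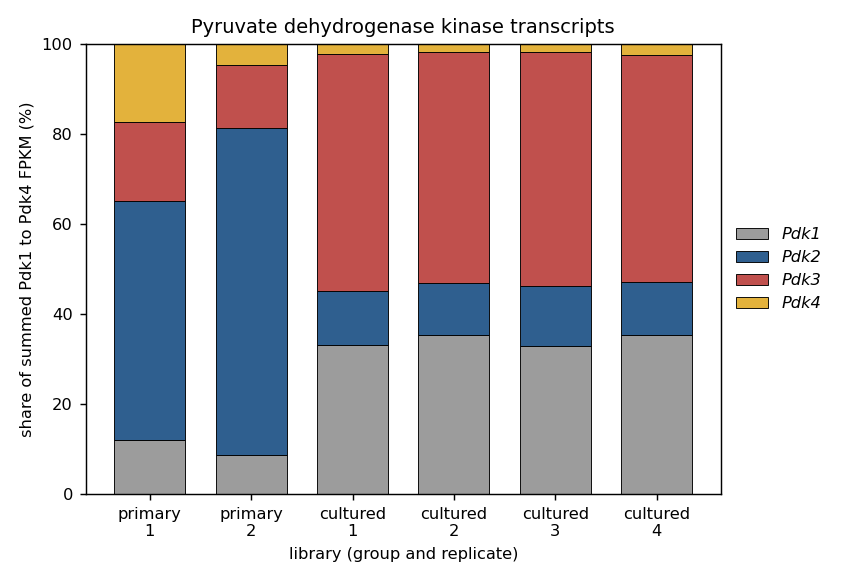
Share of the summed FPKM of Pdk1, Pdk2, Pdk3 and Pdk4 (%) held by each gene, 1 bar per library. Pdk2 is the largest share in both primary libraries (53.0% and 72.4%) and Pdk3 in all 4 cultured libraries (50.3% to 52.6%).

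Pdp1 stood at 11.0 and 15.1 FPKM in the primary and at 45.1, 53.9, 33.5 and 45.2 in the cultured libraries (log2 fold change 1.76, limma adjusted p = 0.000145). Cultured replicate 3 had the lowest of these cultured values, still above both primary values. Pdk4, the kinase known to respond to fasting and to fatty acids, stood at 9.09 and 2.57 FPKM in the primary and at 2.64, 2.12, 1.97 and 3.07 in the cultured libraries. Its value in primary replicate 1 was 3.54 times that in primary replicate 2, the widest gap between the primary libraries of any member tested, and primary replicate 2 lay within the cultured range (log2 fold change -0.98, limma adjusted p = 0.0862). Pdk4 was called as fallen without primary replicate 2 (-1.87), with median ratio scaling (-1.40) and with quantile normalization (-1.26), and stood at -0.09 without primary replicate 1. The adipocyte gene Adipoq was likewise higher in primary replicate 1, at 8.48 FPKM, than in primary replicate 2, at 1.84, and the summed FPKM of 4 adipocyte markers was 11.7 and 3.40 in these libraries and 12.3 to 14.7 in cultured MSCs, nearly all of it Fabp4 (12.1 to 14.6), a gene that macrophages also express. Plin1, another adipocyte marker, did not exceed 0.09 FPKM in any library. Cidec, of the same list, went the other way, at 0 FPKM in primary replicate 1 and 0.59 in primary replicate 2, and was 0 in cultured MSCs. The part of such cells in the Pdk4 values was not tested. Pdk2 was the reverse, the higher of the primary libraries being replicate 2.

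The 3 genes of the oxidative arm of the PPP all rose (48.1% of all genes). Behind G6pdx, Pgls (6-phosphogluconolactonase) had 60.8 ± 7.25 FPKM in primary and 103 ± 5.74 in cultured MSCs (log2 fold change 0.77, limma adjusted p = 0.000374). Pgd, the 6-phosphogluconate dehydrogenase that makes the pathway's other NADPH, stood at 52.0 and 72.6 FPKM in the primary and at 158, 168, 183 and 172 in the cultured libraries (log2 fold change 1.47, limma adjusted p = 5.23e-05). In each of the 3 genes all cultured values lay above both primary ones (52.3% of all genes). All 3 also rose with median ratio scaling (29.3% of all genes). The sum of the 3 FPKM values was 128 and 175 in primary MSCs and 407 to 446 in cultured MSCs, a ratio of means of 2.81. The same ratio was 1.71 for the mitochondrial cycle, 2.30 for the cytosolic and NADP-linked enzymes and 1.15 for pyruvate entry. It was 1.95 for the PDH kinases and phosphatase and 1.71 for the non-oxidative PPP. Summed FPKM was larger in the cultured libraries. As shares of it, the ratios were 2.55 for the oxidative PPP, 1.54 for the cycle and 2.09 for the cytosolic and NADP-linked enzymes. They were 1.04 for pyruvate entry, 1.77 for the kinases and phosphatase and 1.55 for the non-oxidative PPP. Relative to citrate synthase, G6pdx went from 0.457 and 0.634 in primary MSCs to 1.26 to 1.46 in cultured MSCs, and Pgd from 1.15 and 1.27 to 1.41 to 1.69.

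In the non-oxidative arm, which interconverts sugar phosphates and ribose, the 3 members tested rose (48.1% of all genes). Rpe, the ribulose phosphate epimerase, stood at 9.11 and 7.91 FPKM in the primary and at 19.5 to 20.6 in the cultured libraries (log2 fold change 1.23). Transketolase (Tkt) stood at 27.8 and 33.3 FPKM in the primary and at 69.1, 70.6, 65.3 and 74.1 in the cultured libraries (log2 fold change 1.19, limma adjusted p = 4.22e-05). Transaldolase (Taldo1) had 104 ± 3.92 and 156 ± 7.01 FPKM, a smaller rise of 0.58 that did not pass with median ratio scaling (adjusted p = 0.184). Taldo1 was the more abundant in every library, but its ratio to Tkt was 3.86 and 3.05 in primary and 2.09 to 2.38 in cultured MSCs.

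**Figure D4:**
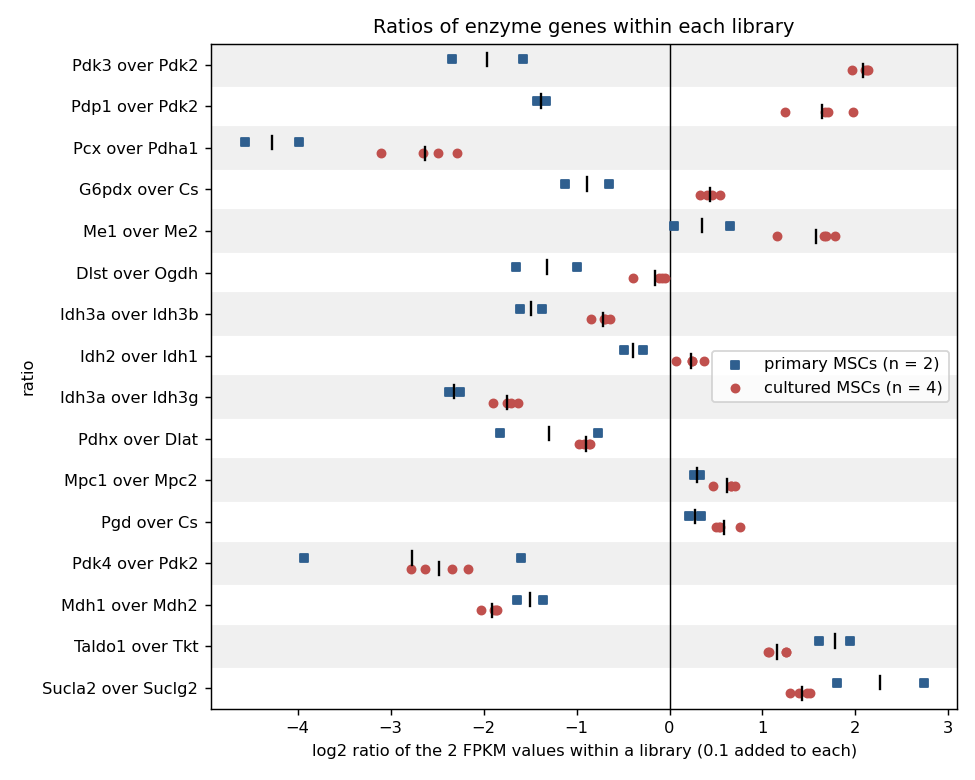
Log2 ratio of the FPKM values (0.1 added to each) of 2 genes within each library, for 16 pairs, with squares for the 2 primary and circles for the 4 cultured libraries and a black bar at each group mean. The groups do not overlap in 14 of the 16 pairs, the exceptions being Pdk4 over Pdk2 and Pdhx over Dlat. The share for pairs of other genes was not computed. The widest shift is that of Pdk3 over Pdk2, from a mean of -1.96 to one of 2.08.

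The spread of the members was measured differently in the 4 cultured and the 2 primary libraries, so the groups are not compared in it. Their coefficient of variation over the cultured libraries ran from 1.64% to 20.5% with a median of 6.44%. The higher primary library was between 1 and 3.54 times the lower, with a median of 1.17. Cultured replicate 1 was the highest of the cultured libraries in 19 of the 35 members tested, and cultured replicate 4 was the lowest in 17. Primary replicate 1 was the higher of the primary libraries in 16 members and primary replicate 2 in 18, and Me2 was equal in both.

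Other genes of the same pathways moved much as the members did. Of 35 tested, 28 rose, none fell and 7 did not pass (limma), where 48.1% and 17.6% of all genes rose and fell. At an unadjusted p under 0.05 none of them were lower in cultured MSCs, and with median ratio scaling 21 rose and 1 fell, beside 29.3% and 28.6% of all genes. Their median log2 fold change was 0.89. Among cycle genes, Ogdhl, an Ogdh-like paralog, stood at 0.03 and 0.04 FPKM in the primary and at 3.18, 5.03, 3.99 and 5.41 in the cultured libraries. Ogdhl thus rose (limma adjusted p = 3.62e-06) where Ogdh did not, though it stayed at a low level beside the 51.7 ± 3.12 FPKM of Ogdh. The assembly factor Sdhaf1 had 18.9 ± 4.49 and 18.4 ± 0.314 FPKM and did not pass.

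Among pyruvate genes, Pdk1, a PDH kinase known as a hypoxia target, stood at 6.29 and 4.96 FPKM in the primary and at 38.2, 41.7, 35.0 and 43.1 in the cultured libraries (log2 fold change 2.80, limma adjusted p = 2.38e-06), while Pdpr, the regulatory subunit of the PDH phosphatase, had 3.09 ± 0.410 and 3.06 ± 0.426 FPKM. Ldha, which turns pyruvate into lactate and was picked here after its values were seen, stood at 750.0 and 771 FPKM in the primary and at 3695, 3901, 3616 and 3849 in the cultured libraries. Its level was thus far above that of every PDH subunit in both groups. In the PPP list H6pd, the endoplasmic reticulum counterpart of G6pdx, rose by 1.70, and Shpk, a sedoheptulose kinase, stood at 1.42 and 1.57 FPKM in the primary and at 0.59 to 1.53 in the cultured libraries and did not pass. Of the genes of citrate and malate transport and NADPH supply all 7 rose (48.1% of all genes), from Acly, the ATP citrate lyase, by 0.75 to Nnt by 2.38. Nnt, the mitochondrial transhydrogenase, is known to carry a deletion in C57BL/6J mice, so its transcripts need not encode a working enzyme.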

How the data were processed

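RNA was amplified with the SMART-Seq v4 kit and sequenced in 6 libraries. According to the submitters' notes and the methods, reads were aligned by the authors on GRCm38.p6 using HISAT2 2.0.4 and Bowtie2 2.2.5 and estimated gene levels with RSEM 1.2.8. The deposited table holds the FPKM values that the authors computed per library, with 2 decimals. It also holds the authors' own log2 fold changes, made with DESeq2 per the methods, which were not used. No counts were in the table, so limma 3.58.1 in R 4.3.3 was run on log2(FPKM + 0.1), with the 2 groups as terms and moderated variances with a trend (4 residual degrees of freedom). The test was tried on simulated data.

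The 36 genes and all lists were chosen with earlier results of these data known. Of the other pathway genes, those with the largest and smallest change in each list were named. This was not done for the lists of cell markers, of which Ly6a and Pdgfra were named for the sort. Ldha, Me3, Adipoq, Fabp4, Plin1, Cidec, Tek, Emcn, Acta1, Tnnt3, Cdh5 and Myh1 were chosen after their values were seen. Gene positions and start regions come from RefSeq (GRCm38.p6). Alternatives were pseudocounts of 0.01 and 1, 2 other filters, 3 scalings, 3 variance settings, a replicate block, and the omission of each library in turn. A lone primary library was then taken to have the spread of the cultured group. Python 3.11.15 was used for summaries.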

Additional observations from a re-analysis of the deposited data

Results flagged for a closer look

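In 106 groups of 4 cultured values, 6 held a value far from the other 3, a pattern that chance gives in about 1 in 20 groups. Pdk3 was 55.3 FPKM in cultured replicate 3 and 60.6 to 61.2 in the others. Nadk was highest in cultured replicate 3, at 92.9 FPKM beside 86.7 to 87.5. Prps2 was lowest in cultured replicate 1, at 11.4 FPKM beside 13 to 13.3. The summed FPKM of the mitochondrial cycle was 1297 in cultured replicate 1 and 1107.5 to 1137 in the others, and the log2 ratio of Mdh1 over Mdh2 was -2.03 there and -1.89 to -1.86 in the others. The summed FPKM of the erythroid genes was 0.61 in cultured replicate 2 and 0.20 to 0.24 in the others.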

How the results depend on the processing

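The rises of the members depended most on quantile normalization and median ratio scaling. Rescaled to TPM (equal summed values per library), 26 members rose and 3 fell, where 7087 of all genes were called in either direction. With quantile normalization 19 members rose and 5 fell, where 6695 of all genes were called, a count not split by direction. With median ratio scaling 18 members rose and 5 fell, beside 29.3% and 28.6% of all genes. The count of members that fell was 1 without a trend, with array weights per group and with the replicate block, and 1 to 3 when single libraries were left out, while 26 to 29 members rose. Of the other pathway genes 1 fell with quantile normalization and 1 with median ratio scaling. The direction of a member turned in 6 cases, none of which passed the test, namely Sucla2 (-0.0085) and Fh1 (-0.0066) with median ratio scaling, Pdhb with median ratio scaling (-0.12) and quantile normalization (-0.0736), and Mpc1 with the replicate block (0.00783) and without primary replicate 1 (0.011). Over the omissions of single libraries, Mpc1 ranged from -0.11 to 0.01. Of the log2 ratio differences, that of Pdk4 over Pdk2 (0.29) ranged from -0.88 to 1.45 and that of Pdhx over Dlat (0.40) from -0.13 to 0.92, each negative without primary replicate 2. The replicate numbers do not pair the samples by the labels. Deviations from the group means correlated at 0.12 and 0.05 for same-numbered libraries and at -0.12 to 0.11 for differently numbered ones. The deviations of the 2 primary libraries mirror each other, so these values cannot decide whether libraries are paired. The block changed the calls of Ogdh, Fh1, Mpc2 and Pdhb and gave 6191 genes called in all in place of 7493. The 2 primary libraries and the unknown read depth limit the precision of every value.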
